A study of Homo sapiens with 4 samples.

Results

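The olfactory receptor genes of human chromosome 11 were examined for ChIP-seq peaks in control cells and in cells treated with TGF-β1. They were defined by annotation, as protein-coding RefSeq genes whose symbol has the olfactory receptor form (OR, number, letters, number). The group itself was chosen with earlier results of these data known. The rule found 171 genes. Of these, 168 lie on the chromosome 11 sequence (hg38), among 19884 protein-coding genes placed on a chromosome, and are described here. The other 3 (OR8U8, OR8U9 and OR9G9) are listed on alternate sequences, whose positions cannot be set beside the peaks, and were left out.

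The human cells carry the labels HSC and stem cells and progenitors, and neither a donor nor a number of cultures is stated. Control cells gave a ChIP library and an input library, and so did cells given TGF-β1 (20 ng/mL in the treatment protocol, 2 h in the design text). The same treatment text stands with all 4 libraries, control libraries too, and lists GDF11 (100 ng/mL) as an alternative agent, so GDF11 exposure of these cells is unclear. The antibody is not named in the sources used here, so what was precipitated is unknown, and peak lists carry no expression with which to check the labelled cell type. Each condition had 1 ChIP library, so differences are between 2 libraries and no test between conditions was made. All intervals are 95% and cover counting error only. After duplicate removal the control ChIP had 36280696 tags and the TGF-β1 ChIP 45984282, from which 5307 and 15993 peaks were called. In bulk chromatin, a site occupied in fewer cells and a site occupied less in every cell cannot be told apart.

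Olfactory receptors are G protein-coupled receptors that bind odorants on sensory neurons of the nose. They signal through the G protein subunit encoded by GNAL, the adenylyl cyclase encoded by ADCY3 and a cyclic nucleotide-gated channel. Each mature neuron expresses a single receptor gene and keeps the others silent in compact chromatin. The genes arose by repeated local duplication, lie in clusters among many pseudogenes, and mostly carry the coding sequence in a single exon. Class I receptors (families OR51, OR52 and OR56) resemble those of fish and lie around the β-globin genes, while class II receptors make up all other families.

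Promoter windows are shown for the 4 members that have the peak summit nearest to the listed start among those in the RefSeq promoter table, because their start regions come closest to a measured peak. They run from 250 bases before the start to 50 from it on, 5′ to 3′ on the gene's strand, as RefSeq gives them for GRCh38.p14. The table held windows for 135 of the 168 members. OR56B4, with a summit 191 bp from the gene, is not among them. Capitals mark matches to the motifs searched (named below).
OR52E2: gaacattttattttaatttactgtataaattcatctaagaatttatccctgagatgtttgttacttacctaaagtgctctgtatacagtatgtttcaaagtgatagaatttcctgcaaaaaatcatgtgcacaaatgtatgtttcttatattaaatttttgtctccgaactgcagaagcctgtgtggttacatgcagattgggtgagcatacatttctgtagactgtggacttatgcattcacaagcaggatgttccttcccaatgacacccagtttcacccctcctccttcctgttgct
OR5B3: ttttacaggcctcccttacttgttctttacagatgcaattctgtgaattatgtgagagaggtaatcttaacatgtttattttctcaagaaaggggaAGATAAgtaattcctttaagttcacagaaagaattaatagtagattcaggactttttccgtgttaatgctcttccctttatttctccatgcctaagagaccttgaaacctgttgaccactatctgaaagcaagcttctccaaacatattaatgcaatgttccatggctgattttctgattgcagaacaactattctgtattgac
OR5D3: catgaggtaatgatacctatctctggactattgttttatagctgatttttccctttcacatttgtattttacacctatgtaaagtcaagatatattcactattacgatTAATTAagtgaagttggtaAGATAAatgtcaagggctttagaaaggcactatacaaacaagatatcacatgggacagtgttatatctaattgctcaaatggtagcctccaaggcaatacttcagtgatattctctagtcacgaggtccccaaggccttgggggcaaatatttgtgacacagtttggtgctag
OR4C11: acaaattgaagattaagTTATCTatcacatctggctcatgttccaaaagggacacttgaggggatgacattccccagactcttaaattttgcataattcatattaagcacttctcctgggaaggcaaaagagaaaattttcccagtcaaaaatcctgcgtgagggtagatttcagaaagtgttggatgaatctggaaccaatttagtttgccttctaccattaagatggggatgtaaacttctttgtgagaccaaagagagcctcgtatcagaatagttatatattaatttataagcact

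The windows lie at chr11:5059578-5059877 (minus strand, OR52E2), chr11:58406825-58407124 (minus strand, OR5B3), chr11:55723526-55723825 (plus strand, OR5D3) and chr11:55607596-55607895 (minus strand, OR4C11). None of them held a summit. The nearest summits were all control summits upstream of the start, 1274 bp away at OR52E2, 1308 bp at OR5B3, 2101 bp at OR5D3 and 2508 bp at OR4C11. Motifs were searched on both strands and allowed to overlap. The GATA factor motif AGATAA, or its reverse, stood 154 bases before the OR5B3 start, 123 before the OR5D3 start and 233 before the OR4C11 start. It was found in 29.7% of the 138 windows of members and in 10.3% of all 35116 windows. The homeodomain motif TAATTA stood 142 bases before the OR5D3 start, and was found in 24.6% of the windows of members against 4.84% of all. OR52E2 had no match to any motif searched. The short SMAD motif CAGACA was found in 17.4% of the windows of members and 16.9% of all, and its palindromic form GTCTAGAC in 0 of the 138 and 0.202% of all. The E-box CACGTG was found in 0.725% against 7.26%, and the AP-1 motif TGACTCA in 2.90% against 4.95%. The EBF consensus was found in 1.45% against 1.21%, and the CTCF core in 0.725% against 2.41%. The windows of members were poor in G and C, with a median of 37.0% against 58.7% over all windows, and the shares were not matched on base composition. The listed start was the first base of ATG in 64 of the 138 windows (46.4%) against 2.29% of all, so many listed starts of members coincide with a coding start, and distances from the start are to that point.

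A peak was assigned to a gene if its summit lay inside the gene, or no farther than 100 kb away with no other protein-coding gene nearer. By this rule 10 of 168 members had a control peak, 5.95% (Wilson interval 3.27% to 10.6%), against 9.35% of all protein-coding genes. In the TGF-β1 list 19 members had a peak, 11.3% (7.36% to 17.0%), against 25.5% of all protein-coding genes. OR52E2 was the member with a peak in both lists (0.595%, against 5.39% of all protein-coding genes and 4.16% of the other chromosome 11 coding genes). A peak in either list was found for 28 members (16.7%, against 29.5% and 24.4%), and 140 had none. Of the other 1129 coding genes of chromosome 11, 6.73% (5.41% to 8.35%) had a control peak and 21.8% (19.5% to 24.3%) had a TGF-β1 peak. For the 219 olfactory receptor genes on other chromosomes the shares were 4.11% (2.18% to 7.62%) and 16.4% (12.1% to 21.9%). Of these 219 genes, 0.913% had a peak in both lists and 19.6% in either, near the shares of the members. In the TGF-β1 list the interval of the members lay below that of the other chromosome 11 genes, and it overlapped that of the receptor genes elsewhere.

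**Figure D1:**
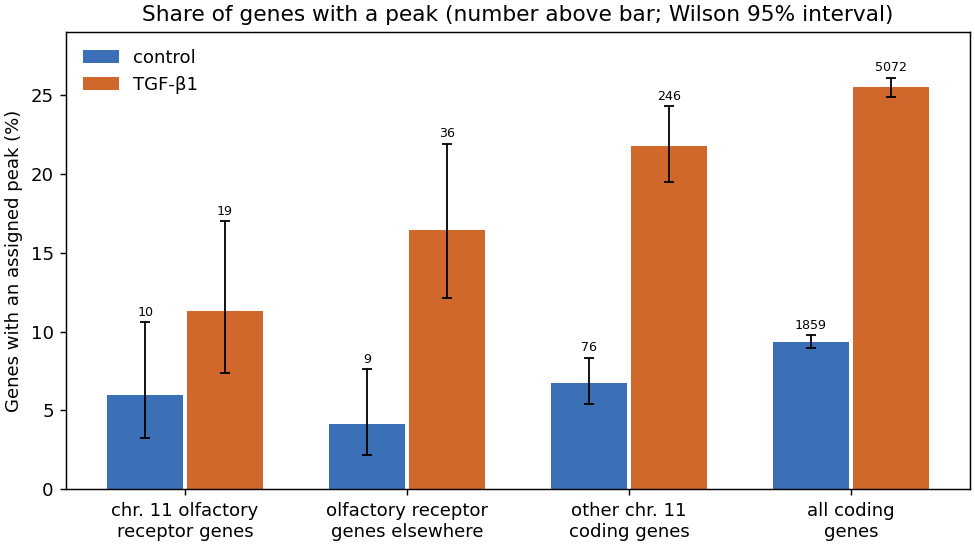
Share of genes with an assigned peak (%) in 4 gene sets, control in blue and TGF-β1 in orange. Bars start at 0, error bars are Wilson 95% intervals, and the number of genes stands above each bar. The TGF-β1 share was 11.3% for the chromosome 11 receptor genes and 25.5% for all coding genes.

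The members are short and closely packed. Their median length was 1103 bp, against 18221 bp for the other coding genes of the chromosome. The stretch of chromosome nearest to a member and within 100 kb had a median of 27.6 kb, against 42.1 kb for the other genes. Members with a peak had longer stretches (median 43.1 kb, n = 28) than members without (23.7 kb, n = 140). A summit is assigned to the gene in whose stretch it falls, so a difference in this direction is built into the rule. Per Mb of such stretches, the TGF-β1 list had 3.53 summits (Poisson interval 2.19 to 5.40) nearest to members and 3.83 (3.45 to 4.24) nearest to other chromosome 11 genes, a ratio of 0.921 (exact interval 0.563 to 1.43). The control list had 1.68 (0.806 to 3.09) and 0.878 (0.702 to 1.09), a ratio of 1.91 (0.886 to 3.69). Both ratio intervals include equality, so per Mb no difference from the other genes of the chromosome was detectable at these counts.

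**Figure D2:**
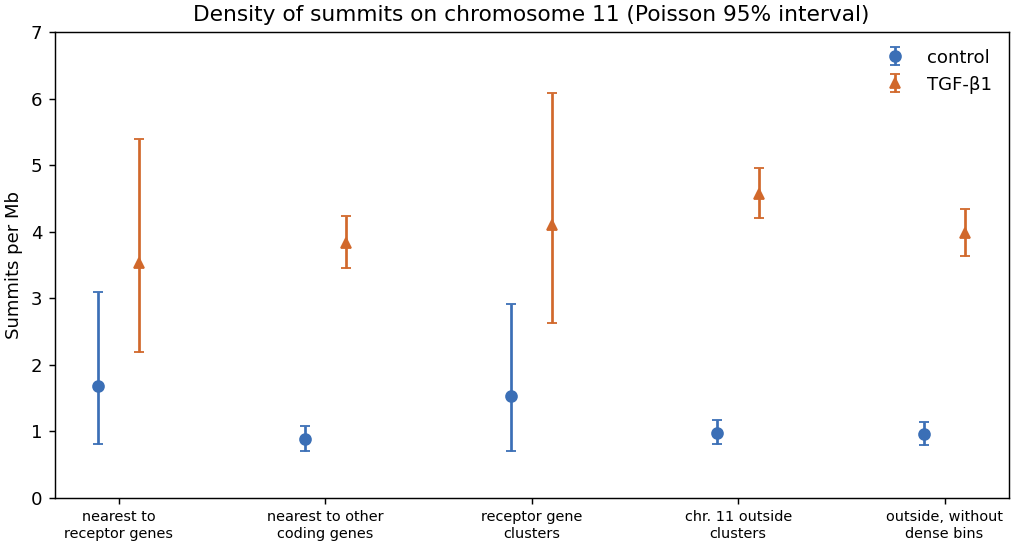
Summits per Mb (y axis) in 5 kinds of stretch of chromosome 11 for the control (circles) and TGF-β1 (triangles) lists, with Poisson 95% intervals. In each list the intervals of the receptor gene stretches overlap those of the rest of the chromosome.

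Joined at gaps of up to 500 kb, the members formed 11 clusters. Peaks were assigned to members of 9 of them, with peaks of both lists in 3, TGF-β1 peaks alone in 4 and control peaks alone in 2. Assigned summits can lie past the ends of a cluster, and those of OR4B1, OR4A47 and OR4C12 did, so that the spans of these members' 2 clusters held no summit. The clusters without a peak of a member were OR2AG2 to OR2D3 (6765626 to 6921994, 8 members) and the lone OR2AT4 (75081753 to 75096890), a receptor for the sandalwood odorant Sandalore that is also studied in skin. With 168 members in 5.86 Mb, the clusters held 9 control and 24 TGF-β1 summits of any assignment, 1.54 (0.702 to 2.92) and 4.09 (2.62 to 6.09) per Mb. The rest of the chromosome had 0.976 (0.813 to 1.16) and 4.57 (4.21 to 4.95) per Mb, which gives ratios of 1.57 (0.703 to 3.08) and 0.896 (0.570 to 1.35). No control peak in a cluster overlapped a TGF-β1 peak. The share of overlapping peaks over the whole lists is not given here, so this count is not read as a trait of the clusters.

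**Figure D3:**
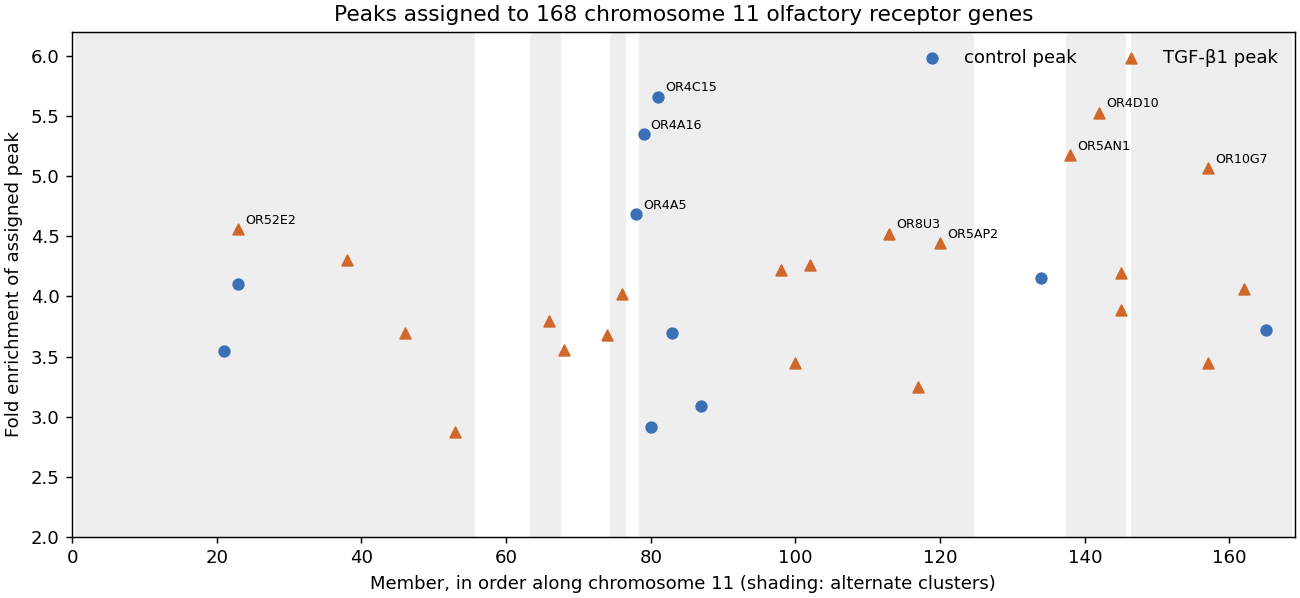
Fold enrichment of each peak assigned to a member (y axis) against the member's order along chromosome 11 (x axis, 168 members, grey and white bands for alternate clusters), circles for control and triangles for TGF-β1. OR52E2 carries both symbols, and the highest control and TGF-β1 values are those of OR4C15 and OR4D10.

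The cluster flanking the β-globin genes runs from OR52B4 to OR52W1 (chromosome 11, 4367263 to 6200186) and holds 55 members, all of class I, and 47 olfactory receptor pseudogenes. In this cluster 2 members had a peak in the control list and 4 in the TGF-β1 list, and 50 had none. By class, 3.64% (1.00% to 12.3%) of class I members had a control peak against 7.08% (3.63% to 13.4%) of the 113 class II members. For TGF-β1 the shares were 7.27% (2.86% to 17.3%) and 13.3% (8.21% to 20.8%), so in both lists the intervals of the classes overlapped.

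OR52E2 (5058650 to 5059627, minus strand) had a peak of each list, on opposite sides of the gene. The control peak (5060825 to 5060989) lay upstream, with a pileup (ChIP tag coverage at the summit) of 21. Its fold enrichment over the local background was 4.10 and its −log10 q 5.04. The TGF-β1 peak (5058203 to 5058352) lay 385 bp past the other end of the gene, and its pileup was 17, its fold 4.56 and its −log10 q 4.86. The summits were 2.64 kb apart and the peaks did not overlap.

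The other peaks of the cluster were in 1 list each. OR51L1 (4994851 to 5005536) held a control summit in its body, 6168 bp from its start (peak 5000932 to 5001092, pileup 18, fold 3.54, −log10 q 3.25). OR52N4 (5726472 to 5755958) held a TGF-β1 summit in its body (5730184 to 5730332, pileup 16, fold 4.31, −log10 q 4.21). A TGF-β1 summit lay 191 bp below OR56B4 (6107684 to 6108835), in a peak (6107392 to 6107553) of pileup 16, fold 2.88 and −log10 q 2.01. The OR52E4 summit lay 10.1 kb from that gene (5880629 to 5887079), in a peak (5870424 to 5870574) of pileup 20, fold 3.70 and −log10 q 4.07. The OR56B4 peak had the lowest fold of all member peaks in the TGF-β1 list, and it ranked 12014 of 15993 by fold. Exons and introns were not analysed.

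The globin genes divide the cluster into 26 members below HBB and 29 above HBE1. Below HBB, 2 members had a peak in the control list and 1 in the TGF-β1 list, and above HBE1 the numbers were 0 and 3. The 5 TGF-β1 peaks assigned to HBB, HBG1, HBG2 and HBE1 had folds of 2.61 to 6.59, and 4 of them were above every peak of a member in the cluster. The members next to the globin genes are OR51V1, 24.8 kb from HBB, and OR51B4, 31.1 kb from HBE1, and neither had a peak. The nearest peak of a member was that of OR52E2, whose control and TGF-β1 summits lay 165 kb and 167 kb from HBB. The TGF-β1 peaks at the globin genes were thus separated from those of the members by stretches without a summit on either side.

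**Figure D4:**
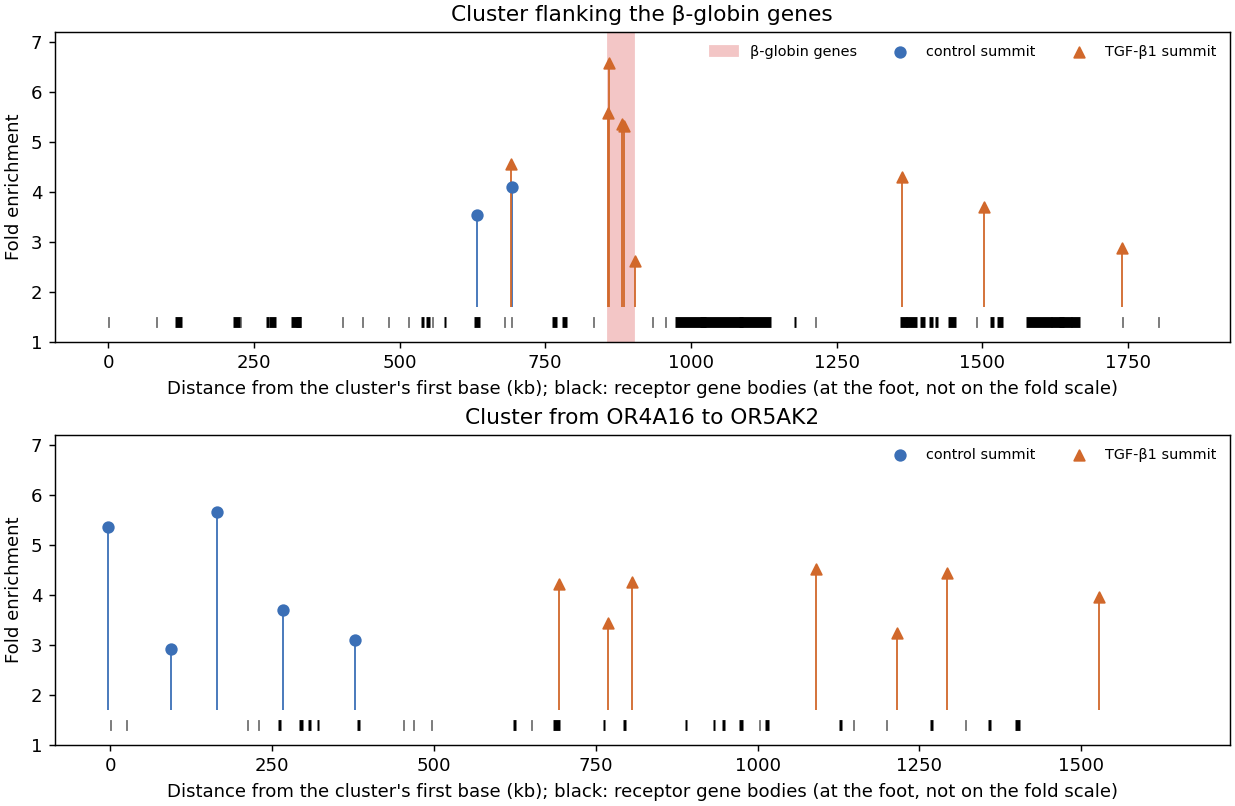
Fold enrichment (y axis) of every summit in the β-globin cluster (top) and in the cluster from OR4A16 to OR5AK2 (bottom), against distance from the first base of the cluster (x axis, kb). Black bars at the foot are receptor gene bodies and the shaded band is the β-globin genes. In the lower panel the control summits lie at −3.19 to 378.5 kb, all below the TGF-β1 summits.

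The largest class II cluster, from OR4A16 to OR5AK2 (55343201 to 56989843), holds 46 members and 53 olfactory receptor pseudogenes. Here 5 members had control peaks, 6 others had TGF-β1 peaks and 35 had none. Among all protein-coding genes the shares were 9.35% (control), 25.5% (TGF-β1) and 5.39% (both lists). The span held 2.43 control summits per Mb (0.662 to 6.22) and 4.25 TGF-β1 summits per Mb (1.71 to 8.76). These intervals include the densities outside the clusters, 0.976 and 4.57. At these counts, neither the numbers of members nor the absence of shared members is read as a trait of this cluster. The 2 lists did not mix along the cluster. The control summits lay at 55340009 to 55721675 and the TGF-β1 summits of members at 56036301 to 56635560, with 314.6 kb between the nearest pair. The division followed the families in part. The OR4 members come first along this cluster, so family OR4 and position cannot be told apart here. The control peaks belonged to OR4A16, OR4A15, OR4C15 and OR4C11 of family OR4 and to OR5D3, and the TGF-β1 peaks to OR5AS1, OR8H2, OR8J3, OR8U3, OR5M11 and OR5AP2 of families OR5 and OR8. In other clusters, OR4B1, OR4A47, OR4C12 and OR4D10 of family OR4 had TGF-β1 peaks. The arrangement along this cluster was noticed in these data and was not tested.

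OR4C15 (55554469 to 55555419) had the highest control fold of all members. Its peak (55508421 to 55508587) had pileup 17, fold 5.66 and −log10 q 6.72, and ranked 56 of 5307, although its summit lay 45.99 kb from the gene. The OR4A16 peak (55339929 to 55340076) came next, 3.19 kb before the start of that gene (55343201 to 55344187), at pileup 15, fold 5.35 and −log10 q 5.56. OR4C11 (55602360 to 55607645) and OR5D3 (55723776 to 55729621), with promoters shown above, had control peaks at 55610075 to 55610252 (pileup 20, fold 3.70) and 55721598 to 55721780 (pileup 24, fold 3.09). Their −log10 q values were 3.97 and 3.38. The OR4A15 peak (55436762 to 55436993), 68.0 kb from its gene, had the lowest control fold, 2.92. It was also the control peak farthest from its member, and the next control summit nearest to a member lay beyond the limit, 322.5 kb from OR4C13.

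Among the TGF-β1 peaks of this cluster, that of OR5AP2 (56635492 to 56635639) had the highest pileup, 34, and the highest −log10 q of any member, 9.27, with a fold of 4.44. OR5AS1 (56027654 to 56038191) held its summit in the gene body, 8647 bp from the start (peak 56036257 to 56036392, pileup 13, fold 4.22, −log10 q 3.42). OR8U3 had a fold of 4.52 (56434162 to 56434297, pileup 14, −log10 q 4.07) at 16.0 kb. The summits of OR8H2, OR8J3 and OR5M11 lay 5.14, 8.90 and 16.1 kb from their genes, with folds of 3.45, 4.26 and 3.25. A further TGF-β1 peak (56870661 to 56870796, fold 3.96) lay 118.2 kb from OR5AK2, just outside the limit, whereas the OR4C12 peak at 85.0 kb was the farthest inside it.

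The cluster from OR5AN1 to OR10V1 (59358895 to 59713845) had 8 members, of which 3 had TGF-β1 peaks and none a control peak. Of their 4 peaks, the OR4D10 peak lay inside the cluster's span, and the OR5AN1 and OR10V1 summits lay beyond its ends. With the OSBP and PATL1 peaks, the span held 3 TGF-β1 summits, 8.45 per Mb (1.74 to 24.7), an interval that includes the density outside the clusters. OR4D10 (59473315 to 59479361) had the highest TGF-β1 fold of all members, 5.53, in a peak (59468286 to 59468488) centred 4908 bp before its start, with a pileup of 23 and a −log10 q of 8.39. It ranked 357 of 15993 by fold. OR5AN1, a receptor for musk odorants such as muscone, came second at fold 5.17 and −log10 q 6.16 (59300769 to 59300945, pileup 18), at 58.1 kb from the gene. OR10V1 had a pair of peaks at 7.12 and 16.7 kb with folds of 3.89 and 4.19.

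In the cluster from OR6X1 to OR8A1 (123753580 to 124571374, 22 members), 2 members had TGF-β1 peaks and 1 a control peak. OR10G7 (124036013 to 124041325), a receptor that responds to eugenol, had TGF-β1 peaks 8.38 and 24.1 kb upstream. The farther one (124065342 to 124065524, pileup 19, −log10 q 6.27) had a fold of 5.07 and the nearer one 3.45. The OR8D2 peak had a fold of 4.06 at 22.2 kb. The control peak belonged to OR8B4, with a fold of 3.72 at 6.57 kb, and lay 74.95 kb from the OR8D2 summit.

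The remaining peaks were spread over small clusters. OR5B3 (58402464 to 58406874), in the cluster from OR9Q1 to OR5B21 (13 members), had a control peak (58408150 to 58408324) of pileup 19, fold 4.15 and −log10 q 4.63. OR4A5 (54706832 to 54707902), on the far side of the centromere, had a control peak (54680680 to 54680828) 26.1 kb away, of pileup 13, fold 4.68 and −log10 q 3.97. OR4B1 and OR4A47 had TGF-β1 folds of 3.55 and 3.68 at 22.0 and 66.8 kb, OR4C12 of 4.02 and OR10A6 of 3.80 at 26.2 kb. Bins with many peaks lie between OR4C12 and OR4A5, from 51000001 to 54000000, with 5 control and 88 TGF-β1 summits, and no member lies in them. Without these bins the rest of the chromosome had 3.98 TGF-β1 summits per Mb, against 4.09 in the clusters.

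Peaks of members lay over low local background, and most had a fold above the median of their list (9 of 10 control and 17 of 21 TGF-β1 peaks). Their median rank by fold was 1096 of 5307 and 3998 of 15993. The control folds ran from 2.92 to 5.66 with a median of 3.91, against 2.97 over the whole list and 3.54 over its peaks of low local background. The TGF-β1 folds ran from 2.88 to 5.53 with a median of 4.06, against 3.46 and 3.65. Local background at the members' summits was 1.99 to 7.09 tags in the control and 2.32 to 6.88 in the TGF-β1 list, at most 3.56 and 2.97 times the genome-wide value. Over high local background (above 5 times the genome-wide value) lay 0 of 10 and 0 of 21 peaks, and a count of 0, taken as under 3 counts, allows shares of up to 30.0% and 14.3%. In the whole lists 40.6% and 17.4% of peaks did. On chromosome 11 as a whole the share was 2.96% and 1.79%. A −log10 q of at least 5 was reached by 3 control peaks (OR4C15, OR4A16 and OR52E2) and by 5 TGF-β1 peaks (OR5AP2, OR4D10, OR10G7, OR5AN1 and OR8J3).

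**Figure D5:**
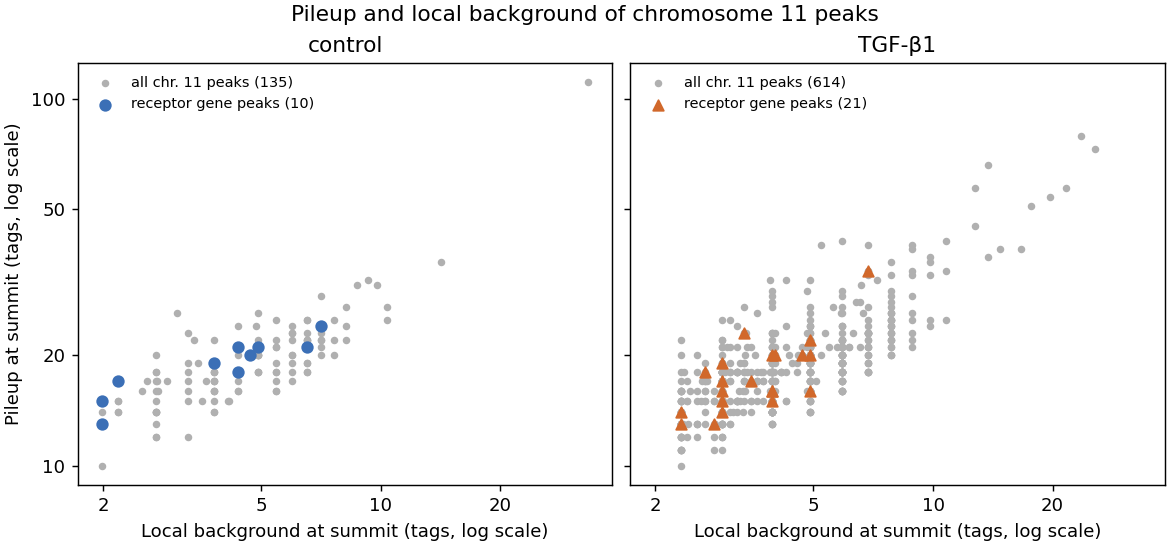
Pileup against local background at the summit, in tags on log axes, for all chromosome 11 peaks (grey) and for peaks assigned to members (coloured), control left and TGF-β1 right. The members' peaks lie among the others at backgrounds of at most 7.09 tags.

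Most summits lay beside the members and not in them. Most bodies are short (median 1103 bp) against the stretches nearest to them (median 27.6 kb). The share of summits in gene bodies over all coding genes is not given here, so the position is not read as a trait of the members. Of the 10 control summits, 1 was in a gene body and 5 more were within 5 kb of one. Of the 21 TGF-β1 summits, 2 were in a gene body, 3 more were within 5 kb and 11 were over 10 kb away. The ratio of TGF-β1 to control peaks was 2.1 (0.947 to 4.99) for members, 4.37 (3.44 to 5.59) for other chromosome 11 coding genes and 3.01 for the whole lists. The interval of the members includes that of the whole lists and overlaps that of the other genes, and the difference was not tested.

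Genes that act with the receptors were in lists too short for their shares to be set apart from those of all coding genes. Of 14 genes of olfactory signalling, 1 had a peak in the control list (GNB1, a G protein β subunit gene) and 4 in the TGF-β1 list (28.6%, 11.7% to 54.7%). These were GNAL (folds of 3.04 and 4.26, both in the gene), the chloride channel gene ANO2 (3.85), STOML3 (3.72) and the receptor transport gene RTP1 (2.76). ADCY3, CNGA2, CNGA4, CNGB1 and OMP, which encodes olfactory marker protein, had none. Of 12 regulators of receptor choice, 5 had a TGF-β1 peak (41.7%, 19.3% to 68.1%), the EBF factor genes EBF1, EBF2, EBF3 and EBF4 (highest fold 3.93, EBF4) and the demethylase gene KDM1A (3.47). EBF2 also had control peaks. Of 36 other chemosensory receptor genes, 5 had TGF-β1 peaks (TAAR2, TAAR5, VN1R4, TAS2R16 and TAS2R39) and VN1R1 had a control peak. Among the 20 coding genes of other kinds inside the clusters, 7 had a peak with TGF-β1 (35%, 18.1% to 56.7%). In the control list 0 of 20 did (Wilson interval up to 16.1%). These intervals include the shares of all protein-coding genes, 25.5% with TGF-β1 and 9.35% in the control. The 7 were 4 β-globin genes, OSBP (3.92), PATL1 (2.79) and VWA5A (4.26).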

How the data were processed

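ChIP-seq peaks of 1 control and 1 TGF-β1 library, each with its own input, were analysed. Per the submitters' processing notes, the authors used Bowtie2 and the hg38 build. Peaks were called with MACS 2.2.7.1 at a q-value limit of 0.05, per the file headers, while the notes name MACS2 2.1.0. The libraries were not pooled. Pileup, as deposited, is the signal (tag coverage) at a peak's summit after the caller scaled the larger library down. Fold enrichment, as deposited, is a ratio of pileup to local background, with 1 added to each. The −log10 p-values and −log10 q-values were deposited as the caller gave them. All are the authors' values for single peaks and rank peaks only within a list. Per the file headers, control tags were 60 bp and TGF-β1 tags 43 bp long.

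Local background was computed from pileup and fold. Distances run from the summit to the gene body. Genes came from a RefSeq table (GRCh38.p14), from which 172 protein-coding genes outside the chromosome sequences were left out. Shares have Wilson, numbers exact Poisson and ratios exact conditional intervals (Python 3.11.15, SciPy 1.17.1). Assignment and intervals were tested on simulated data. The members and lists were chosen with earlier results of these data known. Every member with a peak was named. Full values were given for those with peaks in both lists, the 5 highest folds per list, summits in the gene or within 5 kb of its start, and the β-globin cluster. Sequences around summits, protein sequences, exons and introns were not analysed. Alternatives varied the distance limit, peak threshold, list length, competing genes and cluster gap.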

Additional observations from a re-analysis of the deposited data

How the results depend on the processing

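The counts depended most on the peak threshold and the distance limit, and next on list length and on which genes compete for a summit. With a −log10 q of at least 5, members with a peak fell to 3 (control, 3 peaks) and 5 (TGF-β1, 5 peaks), with 0 in both lists, 1 control and 0 TGF-β1 members in the β-globin cluster and 4 clusters with a peak. With summits in the gene body, 1 control (1 peak) and 2 TGF-β1 members (2 peaks) were left, 0 in both lists, and 1 of each list in the β-globin cluster. Within 10 kb, 10 members had a TGF-β1 peak (10 peaks). With lists of equal length by fold, 12 did (13 peaks), 2 of them in the β-globin cluster, against 10 in the control list. With all RefSeq genes competing, 7 members had a TGF-β1 peak (7 peaks, 2 members in the β-globin cluster) and 7 a control peak. The shares of all coding genes under these alternative settings are not given here. The counts of members are therefore not read as a trait of the members. At a gap of 100 kb, 14 of 19 clusters had a peak. Using the whole peak left every count as it was. Low local background alone did so too, but could not change a count, because no peak of a member lay over high local background. Both other definitions of a shared peak gave 0 shared peaks. They could give nothing else, because no peaks overlapped and the nearest summits were 2.64 kb apart, beyond the 500 bp allowed. Keeping the 3 genes of alternate sequences at their listed positions, an alternative chosen after seeing the data, gave 20 members with a TGF-β1 peak. The one gained, OR8U8, is not a result, because its listed position belongs to another sequence than the peak's. Leaving out the bins rich in peaks, also chosen after seeing the data, moved the ratio of density in the clusters to that outside from 0.896 to 1.03 (TGF-β1) and from 1.57 to 1.60 (control). No paired analysis was possible because each group had 1 library and no replicate could be left out. Depth differed between the ChIP libraries and, in the other direction, between the inputs. After duplicate removal the control input had 66537905 tags and the TGF-β1 input 46802425. A peak absent from a list was not detected at that list's depths and threshold.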

Other observations

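Many of the summits assigned to members lay nearer to an olfactory receptor pseudogene than to an intact gene. Chromosome 11 has 205 such pseudogenes in the RefSeq table, 148 of them in the clusters, beside the 168 members. Pseudogenes are thus nearly as numerous there as members, and whether summits favour them was not tested. With genes of every kind considered, an olfactory receptor pseudogene was the nearest gene for 3 of 10 control and 11 of 21 TGF-β1 summits. The OR4C15 summit of highest control fold lay 1158 bp from the pseudogene OR4C1P, the OR4A5 summit 2135 bp from OR4A8 and the OR4A15 summit 4504 bp from OR4A10P. In the TGF-β1 list, the OR5AP2 summit of highest pileup lay 1458 bp from OR5AP1P, and the farther OR10V1 summit 1010 bp from OR10Y1P. The summits at OR56B4 and OR10A6 lay inside the long non-coding genes LOC124902622 and LOC283299. Receptor genes and pseudogenes of a family are similar in sequence, and no source used here states a filter on mapping quality, so assignment among relatives is uncertain.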
